A study of Drosophila melanogaster with 4 samples.

Results

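Isolated low-scoring peaks on the chromosome arms made up 480 of the 9485 peaks that the authors reported for this series, and 480 of the 1668 peaks on the 6 arms (28.8%). A peak entered this set when it lay on 2L, 2R, 3L, 3R, 4 or X, when no other peak came within 500 bp on either side, and when its score was below 25. The score is the peak caller's own value as the authors gave it, on a scale that is not stated. It serves to rank and class peaks within the list, and differences in score have no known unit. The members were thus chosen by their scores and gaps, which are given below as a description and support no other statement. Per the labels the series has 2 ChIP libraries and 2 input libraries from whole Drosophila melanogaster embryos of the labelled stage 0-8, all of strain Hr46-GFP with the genotype PBac{y[+]-attP-3B}VK00033 and a transgene of the Hr46 genomic coding region. In ChIP-seq an antibody pulls down DNA fragments crosslinked to a protein, while input DNA skips the pull-down. The antibody of the ChIP libraries is labelled as directed against tango, whereas the titles name TCF and carry the word nonISO1, and the extraction protocol describes y; bw cn sp flies with an egg laying time that differs from the labelled stage. The protein behind the peaks is therefore not named here. Values per library were not used, which leaves the depth unknown and the values below without a replicate error, and ChIP was not tested against input.

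The 3 labelled proteins are all DNA-binding regulators: tango is the fly ARNT, a bHLH-PAS protein, TCF acts at the end of the Wingless pathway, and Hr46 belongs to the nuclear receptors. A peak is a stretch where the caller found more ChIP reads than its background model allows, and a low score here means only a score below 25. In flies each long arm runs from gene-rich euchromatin into pericentromeric heterochromatin, which is dense in transposon remnants and tandem repeats. The centromere lies at the high-coordinate end of 2L, 3L and X and at the low-coordinate end of 2R and 3R. The small chromosome 4 is largely packaged like heterochromatin while carrying active genes.

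Scores of the members ran from 6.41 to 24.74, with a median of 13.5 and quartiles of 10.6 and 17.1. The lowest belonged to a 223 bp peak on 2L from 6177456 to 6177678 (score 6.41, coordinates on FlyBase release 5), a 251 bp peak on 3L from 8384872 to 8385122 (6.61) and a 260 bp peak on 2L from 8021862 to 8022121 (6.82). At the upper limit 3 members shared the score 24.74: a 382 bp peak on 3R from 24905535 to 24905916, a 244 bp peak on X from 8544998 to 8545241 and a 4966 bp peak on 3R from 21662446 to 21667411. Just outside it stood isolated peaks scoring 25.09, such as those on X from 8287598 to 8288067 and from 6672053 to 6672414 and on 2R from 17096148 to 17096853. At the gap limit, a pair of members on 2L, from 13561841 to 13563022 and from 13563526 to 13564975, lay 503 bp apart and counted as isolated. A pair on 3L, from 1154340 to 1155080 and from 1155579 to 1157435, lay 498 bp apart and did not. Scores took few values: the 480 members had 190 different scores, 353 members shared their score with at least 1 other, and 13 members had the score 13.6.

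Members occurred on every arm. Arm 2L had 112 members, 3L had 106, 3R had 98, X had 81, 2R had 77 and chromosome 4 had 6. Per Mb of span between the outermost peaks of an arm, 2L held 4.94 members, 3L 4.34, 2R 3.64, X 3.62 and 3R 3.52. Their share of an arm's peaks was 31.8% for 3R, 29.6% for 2L, 29.5% for 3L, 27.7% for 2R and 24.5% for X. The first place of 2L rested on 1 dense block described below, without which 2L held 71 members (3.13 per Mb), the fewest per Mb of the long arms. Chromosome 4 held 8.17 members per Mb, from 6 peaks over a span of 0.735 Mb. These 6 started at 612470, 730253, 861675, 1286782, 1289997 and 1296356, with scores of 20.95, 23.65, 9.08, 11.72, 13.05 and 8.84, so 3 of them lay within 10 kb of one another at the distal end. The span of chromosome 4 leaves out the bases before its first peak, as the member starting at 612470 lay only 4.19% into it. Leaving these bases out raises the count per Mb, so it does not compare directly with the long arms. Together the 480 members covered 203 kb, or 15.8% of the bases covered by arm peaks.

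Members were most frequent next to the centromere on 2R and 3L, and on 2L through 1 dense block, and not on 3R or X. Values for single arms are given for members only, so whether the other peaks of each arm lay likewise is not shown. Over the 5 long arms, 114 of 474 members (24.1%, exact 95% interval 20.3 to 28.2%) lay in the first 10% of the span as counted from the centromere end, called pericentromeric here; spans run between the outermost peaks of an arm, so this part need not match the heterochromatin seen in chromosome spreads. The share was 19 of 204 (9.31%, 5.70 to 14.2%) among isolated peaks scoring 25 to under 100, 4 of 68 (5.88%, 1.63 to 14.4%) among isolated peaks scoring 100 or more, and 151 of 909 (16.6%, 14.2 to 19.2%) among peaks with a neighbour within 500 bp. All arm peaks together gave 288 of 1655 (17.4%). The intervals are Clopper-Pearson intervals and cover counting error only, and neighbouring peaks are not independent, so they are too narrow. No test of these shares was made, since the list gives 1 value per peak and none per library.

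**Figure D1:**
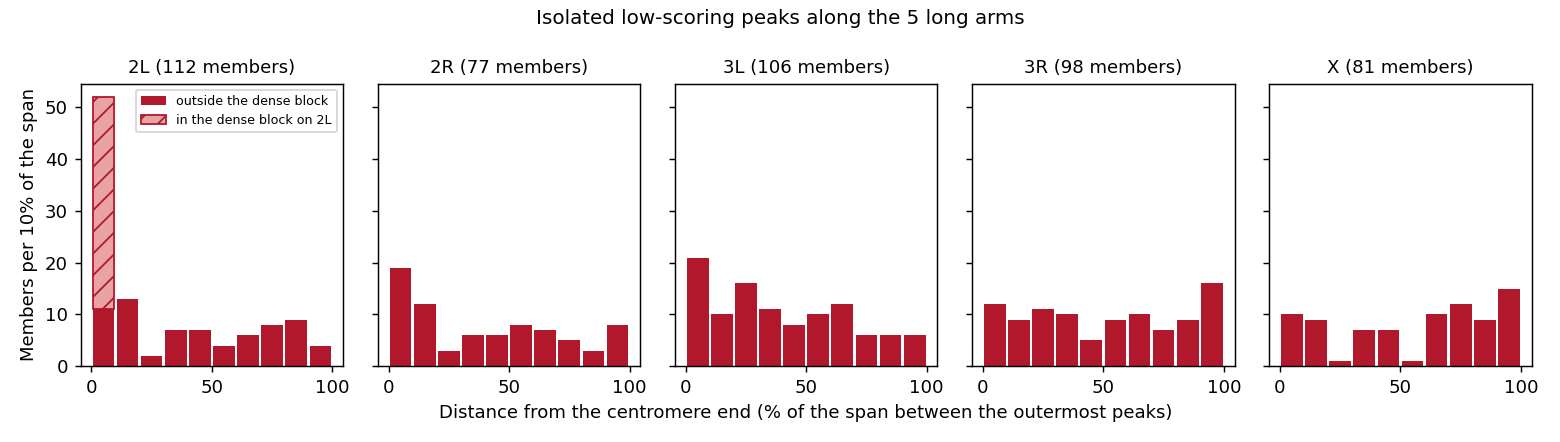
Number of members in each 10% section of the span of the 5 long arms, counted from the centromere end at the left of each panel; hatching marks the 41 members of the dense block on 2L. Other arm peaks are not drawn. The first section is the fullest on 2L, 2R and 3L, with 52, 19 and 21 members, with 2L having 11 there outside the block and 13 in the next section, whereas on 3R and X the section farthest from the centromere is, with 16 and 15.

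The arms differed in how the members lay. The pericentromeric members were 52 of 112 (46.4%) for 2L, 19 of 77 (24.7%) for 2R, 21 of 106 (19.8%) for 3L, 10 of 81 (12.3%) for X and 12 of 98 (12.2%) for 3R. The exact intervals were 37.0 to 56.1% for 2L, 15.6 to 35.8% for 2R and 12.7 to 28.7% for 3L. For X the interval was 6.08 to 21.5% and for 3R 6.49 to 20.4%. An even spread over the span would give 10%. Because neighbouring peaks are not independent, these intervals are too narrow to sort the arms by that value, and no test was made. Without the dense block, 2L kept 11 pericentromeric members of 71 (15.5%, 8.00 to 26.0%), and its next 10% section was fuller, with 13. Over the 5 arms without that block the share was 73 of 433 (16.9%, 13.5 to 20.7%), and without 2L it was 62 of 362 (17.1%, 13.4 to 21.4%). All arm peaks gave 13.7% (12.0 to 15.5%) without the block and 12.5% (10.8 to 14.5%) without 2L. Peaks with a close neighbour gave 14.1% (11.8 to 16.5%) and 12.0% (9.69 to 14.6%), and for both sets these intervals overlap those of the members. Isolated peaks scoring 25 or more had 20 of 269 (7.43%, 4.60 to 11.2%) without the block and 14 of 214 (6.54%, 3.62 to 10.7%) without 2L. The next 10% of the span held 53 members, and each further 10% section held 32 to 49. At the other end of the arms, the last 10% held 49 of 474 members (10.3%), of which 16 lay on 3R and 15 on X. The same section held 37 of 272 isolated peaks scoring 25 or more and 119 of 909 peaks with a close neighbour. Peaks there were thus not particular to the members, and for single arms the other peaks were not compared.

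Within the members, the pericentromeric share varied with the score. Of the members scoring under 10, 22 of 96 (22.9%) were pericentromeric, of those from 10 to under 15, 52 of 196 (26.5%), and of those from 15 to under 20, 35 of 121 (28.9%). Of the members scoring 20 to under 25, only 5 of 61 (8.20%, 2.72 to 18.1%) were, a share between the 9.32% of isolated peaks scoring 25 to under 50 and the 5.88% of those scoring 100 or more. Without the dense block, 69 of 373 members scoring under 20 (18.5%, 14.7 to 22.8%) and 4 of 60 scoring 20 or more (6.67%, 1.85 to 16.2%) were pericentromeric, and without 2L 59 of 312 (18.9%) and 3 of 50 (6.00%) were. Without the block the intervals of adjoining classes overlapped, with a lower bound of 13.9% from 15 to under 20 and an upper bound of 16.2% from 20 to under 25. The score of 20 was picked after these shares were seen. The highest score of a pericentromeric member was 21.62.

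**Figure D2:**
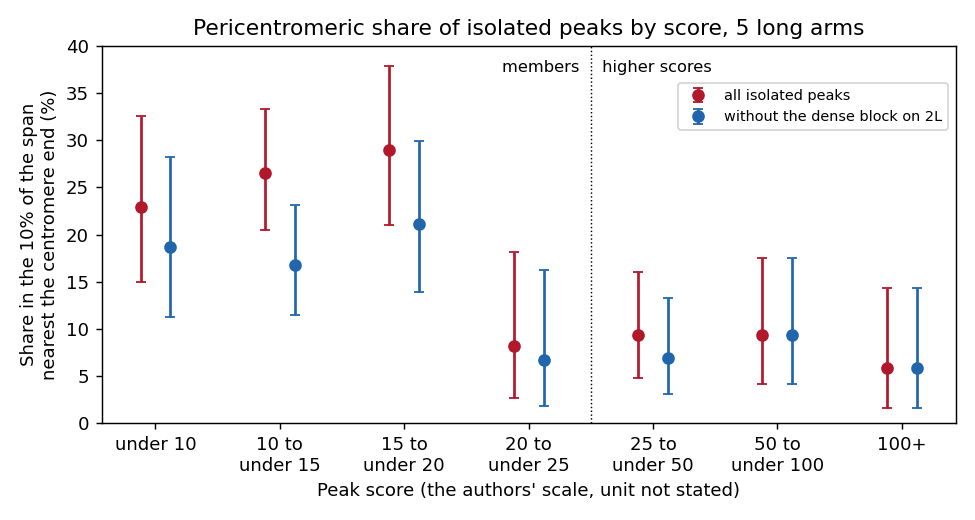
Pericentromeric share of isolated peaks on the 5 long arms by score class, with exact 95% binomial intervals; red shows all isolated peaks, blue the same without the dense block on 2L, and classes left of the dotted line are members. The red shares are 22.9 to 28.9% below a score of 20 and 5.88 to 9.32% above it. The blue shares are 16.8 to 21.1% below it and 5.88 to 9.30% above it.

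Score and gap are values of the rule, so they are compared here as a description only. Pericentromeric members resembled the others in width. On 2L, 2R and X, but not on 3R, they also stood closer to other peaks, with little difference on 3L. Their median width was 302 bp, against 312.5 bp for the 360 members elsewhere on the long arms, a difference of -10.5 bp whose sign varied between arms, from -27 bp on 3R to 13 bp on 3L. Their median score was 12.2, against 13.6 elsewhere, and it was lower on each of the 5 arms: the difference was -2.66 for 3L, -2.24 for 2R, -2.22 for X, -0.56 for 2L and -0.405 for 3R. The gap to the nearest arm peak had a median of 2.13 kb in pericentromeric members and 29.0 kb in the others. Without the dense block the pericentromeric median was 8.23 kb. For pericentromeric against other members of one arm, it was 1.25 kb against 37.7 kb in 2L, 2.50 kb against 20.3 kb in 2R, 6.15 kb against 36.8 kb in X and 28.3 kb against 31.4 kb in 3L. In 3R it was larger near the centromere, at 35.2 kb against 20.8 kb. The mapped heterochromatic scaffolds, which are separate sequences of the same chromosomes, held 287 peaks with a median score of 12.9 and a median width of 369 bp. These were taken with no limit on score or gap, and their scores reached 148.94, so they are not a set like the members.

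Members were narrow. The median width was 309 bp, with quartiles of 242 and 426 bp. The median was 497 bp (quartiles 394.5 and 667 bp) for isolated peaks scoring 25 to under 100, 616 bp (528 and 710.5 bp) for those scoring 100 or more and 693 bp (385 and 1332 bp) for peaks with a close neighbour. No arm peak was narrower than 201 bp, and 20 members (4.17%) had exactly that width, as did 0 of the 275 isolated peaks scoring 25 or more, 10 of the 913 peaks with a close neighbour and 11 of the 287 on heterochromatic scaffolds. Widths under 250 bp were found in 139 members (29.0%), against 3 of the 275 higher-scoring isolated peaks (1.09%) and 81 of the 913 peaks with a close neighbour (8.87%). On heterochromatic scaffolds 64 of the 287 peaks (22.3%) were that narrow, so such widths were not particular to members. The median width differed little between the long arms, from 289 bp on 3L to 326 bp on 2R, and was 231.5 bp for the 6 members on chromosome 4.

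Width and score went together within the set. The median width of isolated peaks on the long arms was 253.5 bp below a score of 10, 300.5 bp from 10 to under 15, 372 bp from 15 to under 20 and 382 bp from 20 to under 25. Above the limit of the set it was 474 bp from 25 to under 50, 515.5 bp from 50 to under 100 and 616 bp from 100 on. Across the 480 members Spearman's rho of width and score was 0.386 and Pearson's r was 0.323. For the 275 isolated peaks scoring 25 or more, rho was 0.274 and Pearson's r was -0.00521. Width and score come from the same reads of each peak, and peaks are not independent, so these coefficients describe the list.

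**Figure D3:**
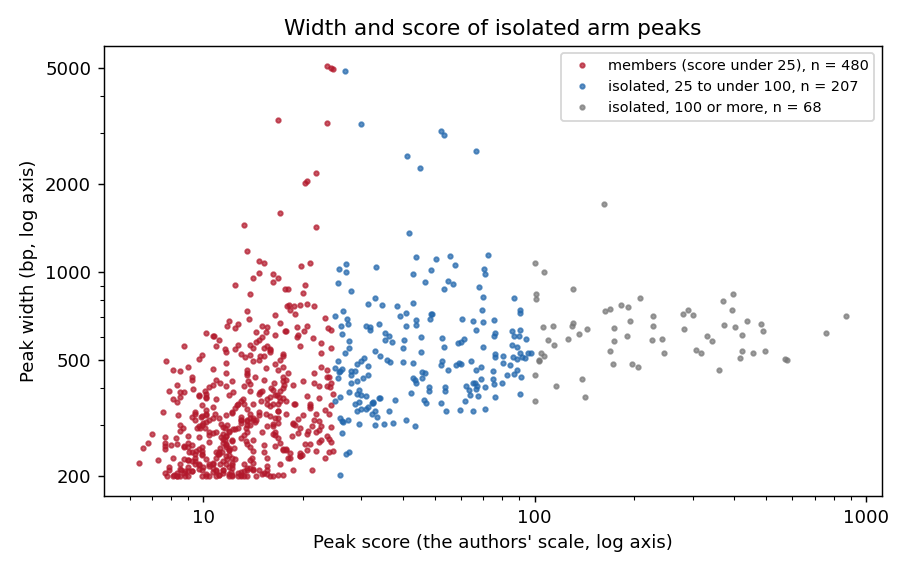
Width against score of the 755 isolated arm peaks on log axes; each point is 1 peak, red for members, blue for scores of 25 to under 100 and grey for 100 or more. Members start at the floor of 201 bp and most are under 600 bp wide, with 3 of 4966 to 5060 bp at the right edge of the red cloud.

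A few members were far wider than the rest, and nearly all of these stood just past the gap limit. There were 16 members of 1000 bp or more, of which 13 had another peak within 1 kb, against 81 of the 464 narrower members (17.5%). The 8 members of 2000 bp or more included 7 whose nearest peak was 514 to 679 bp away. The 3 widest measured 5060 bp on 3R from 22202160 to 22207219 (score 23.65), 4985 bp on 3L from 18521910 to 18526894 (24.38) and 4966 bp on 3R from 21662446 to 21667411 (24.74). Their widths lay within 94 bp of one another, and their nearest peaks were 595, 665 and 514 bp away. The pair on 3R were neighbours in the list on the sides that faced each other, with 534.7 kb between them free of peaks. Of the 8 arm peaks wider than 4800 bp, with scores of 23.65 to 28.02, 3 were members, 4 had a neighbour within 500 bp and 1 was isolated with a higher score. The 8th wide member was the outermost peak of 2R, from 150 to 2174 (score 20.28), which had its nearest peak 109349 bp away.

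Apart from the excluded 500 bp, the spacing of members was mixed, with many members a few kb from the next peak and many over 50 kb from it. The gap to the nearest arm peak had a median of 19.0 kb (interquartile range 1.61 to 66.5 kb). It was at most 1 kb for 94 members (19.6%), at most 5 kb for 179 (37.3%) and over 50 kb for 146 (30.4%). Of the 275 isolated peaks scoring 25 or more, 8 (2.91%) had a peak within 1 kb, 23 (8.36%) within 5 kb, and 128 (46.5%) had none within 50 kb. Outside the dense block 138 of 439 members (31.4%) had a peak within 5 kb. The members farthest from any other arm peak were on 3L from 12177094 to 12177406 (449.1 kb), on X from 13250722 to 13251045 (420.7 kb) and on 3L from 2115797 to 2116010 (332.9 kb), with scores of 14.45, 10.19 and 13.6. Members over 50 kb from the next peak had a median score of 13.7 and a median width of 305 bp, close to the values of the whole set.

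**Figure D4:**
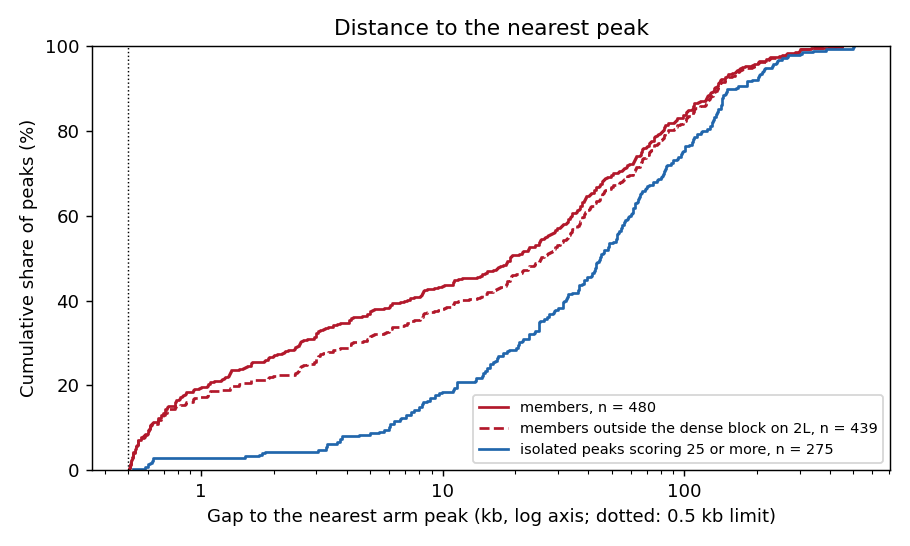
Cumulative share of isolated arm peaks by the gap to the nearest arm peak, on a log axis in kb; the solid red line shows members, the dashed red line members outside the dense block on 2L and the blue line isolated peaks scoring 25 or more. At 5 kb the lines stand at 37.3%, 31.4% and 8.36%.

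The close neighbours of members were mostly other members. Of the 179 members with a peak within 5 kb, the nearest was another member for 117 (65.4%), a peak with a neighbour within 500 bp for 53 (29.6%) and an isolated peak scoring 25 to under 100 for 9 (5.03%). For 0 of the 179 it was an isolated peak scoring 100 or more. Outside the dense block the counts were 89, 44, 5 and 0 of 138, so the order was the same. Of all arm peaks, 28.8% are members and 54.7% have a close neighbour. Isolated peaks scoring 25 to under 100 make up 12.4% and those scoring 100 or more 4.08%. Only 4 of the 68 isolated peaks scoring 100 or more had any peak within 5 kb. Peaks with a close neighbour sit together by definition and so offer fewer separate places to be near. Members that are nearest to each other count for both. Among the 146 members beyond 50 kb, the nearest peak was a member for 66 (45.2%) and an isolated peak scoring 100 or more for 20 (13.7%). Members within 1 kb of another peak had a median width of 383 bp, against 297 bp for those from 1 to 5 kb, 297 bp from 5 to 50 kb and 305 bp beyond. The pericentromeric share was 33.0% within 1 kb, 49.4% from 1 to 5 kb, 15.1% from 5 to 50 kb and 13.1% beyond, and in the first 2 of these classes 13 of 76 (17.1%) and 18 of 60 without the dense block.

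In windows of 100 kb, 334 windows held members and 250 of these held a single one. Only 4 windows held 5 or more, and all 4 lay in the pericentromeric part of their arm. The first, on 2L from 21400001 to 21500000, held 26 members among 48 arm peaks, and the window beside it, from 21500001 to 21600000, held 16 among 33. The third, on 2L from 22800001 to 22900000, held 5 members and no other peak. They lay between 22805226 and 22810552, with gaps of 698 to 1203 bp to their nearest peaks, widths of 217 to 453 bp and scores of 7.66 to 17.42. The fourth, on X from 21500001 to 21600000, also held 5, with scores of 9.52 to 19.19.

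The dense block on 2L was the only place where members gathered in large number. Linking arm peaks at most 10 kb apart, a limit chosen after the windows were seen, gave 1 block from 21416605 to 21547584 with 41 members, or 8.54% of all, whereas the next largest group held 5. The block was 131 kb long, lay 6.34 to 6.91% of the span from the centromere end, followed a gap of 392.8 kb and ended before a gap of 13.4 kb. Besides the 41 members it held 27 peaks with a neighbour within 500 bp and 3 isolated peaks scoring 25 or more. Peaks covered 24.9% of it. Its members scored 7.8 to 20.56 with a median of 12.1, and had a median width of 294 bp (201 to 771 bp) and a median gap of 1.24 kb to the nearest peak. The highest score of any peak in the block was 29.71.

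The block was searched for members that follow each other in like steps. In its proximal part 8 members started at 21504021, 21509085, 21514077, 21518979, 21523858, 21528715, 21533576 and 21538660, in steps of 5064, 4992, 4902, 4879, 4857, 4861 and 5084 bp. They were picked from the 41 members as the longest series whose starts follow in steps of 4.8 to 5.2 kb, so the size and evenness of the steps come from that choice. These 8 were 201 to 608 bp wide and scored 7.8 to 19.32, and 4 other members lay between them. Measured between midpoints, the longest such series held 5 members. Over the 41 members of the block, the pairs of midpoints in bins of 0.5 kb centred on multiples of 2.5 kb numbered 9 at 2.5 kb, 13 at 5 kb, 9 at 7.5 kb, 13 at 10 kb, 4 at 12.5 kb and 8 at 15 kb. Bins centred between these multiples held 10 pairs at 3.75 kb, 7 at 6.25 kb, 7 at 8.75 kb, 6 at 11.25 kb, 5 at 13.75 kb and 4 at 16.25 kb. The counts of both kinds of bin overlapped, and in all they came to 56 and 39 pairs. Bins on multiples ran from 2.5 to 15 kb and those between from 3.75 to 16.25 kb. The totals are thus not at matched distances and cannot show a period. The steps were looked for after the positions were seen, and no test of them was made. As background, the tandem array of replication-dependent histone genes of this species, in which a unit of histone genes is repeated, lies in the proximal part of 2L; whether the block overlaps it was not tested, since no annotation of release 5 was used.

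**Figure D5:**
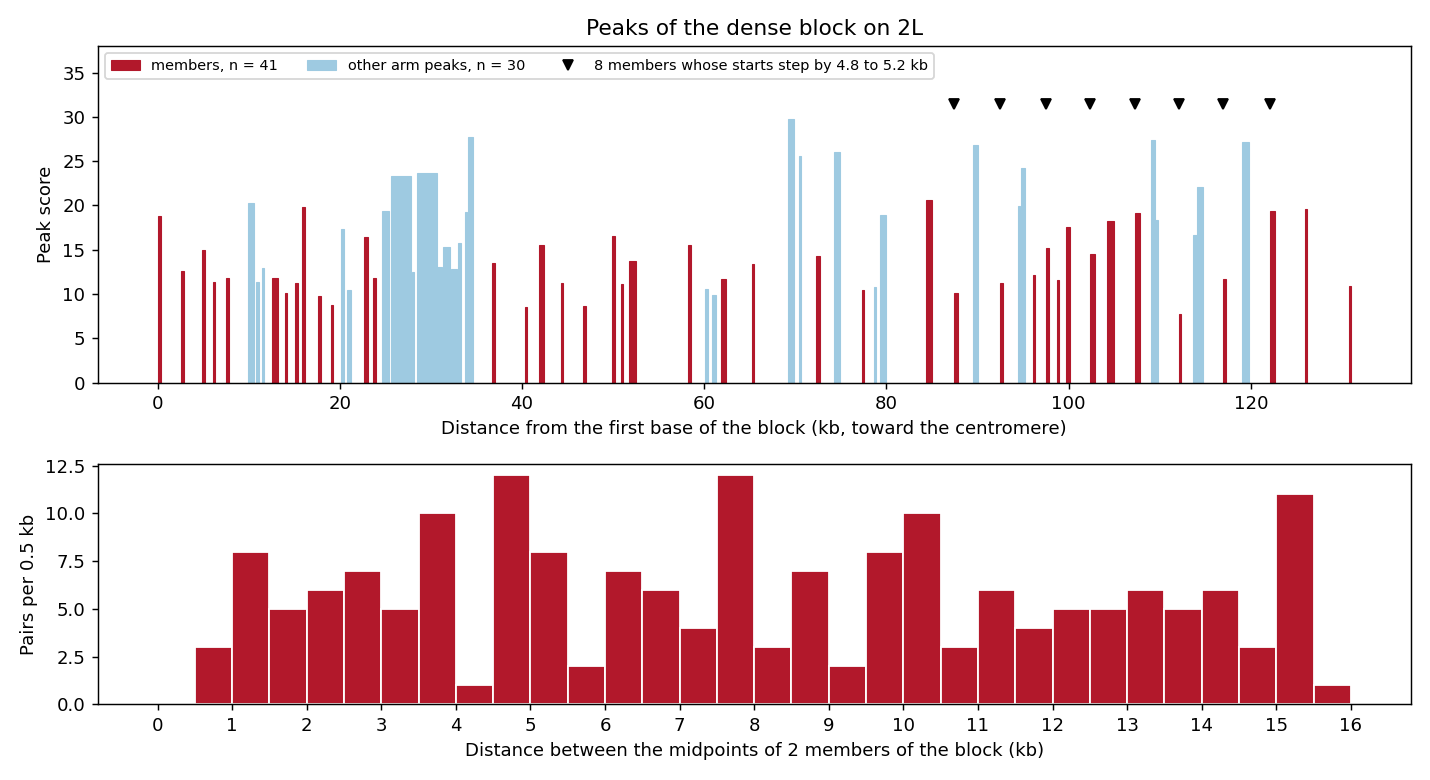
Top: the 71 peaks of the dense block on 2L, each drawn to scale by its width and score along the distance in kb from the first base of the block, red for the 41 members and blue for the others; triangles mark the 8 members whose starts follow in steps of 4.8 to 5.2 kb. Bottom: distances between the midpoints of all pairs of members in the block, in bins of 0.5 kb up to 16 kb. The fullest bins hold 12 pairs each, from 4.5 to 5 kb and from 7.5 to 8 kb. Next are 11 pairs from 15 to 15.5 kb and 10 each from 3.5 to 4 kb and from 10 to 10.5 kb. The bins from 4 to 4.5 kb and from 15.5 to 16 kb hold 1 pair each.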

How the data were processed

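Chromatin of the ChIP and input libraries was represented by 1 peak list that the authors deposited for the whole series, with a score per peak on an unstated scale. MACS is its source and FlyBase release 5 its build, per the file headers. MACS2, BWA, BDGP5 and CASAVA (versions 1.7.0.3 and 1.7.0.2) appear without roles in the submitters' processing notes. The sources used here do not give the peak threshold, the placement of reads that map to several places, the use of the input or any pooling of replicates; the placement of repeated reads bears on peaks near centromeres. Depth is unknown. Peaks were sorted by start within each arm, and a gap is the next start minus the previous end minus 1. Position is the peak's midpoint, and spans run between the outermost peaks of an arm, since arm lengths were not used. The peaks to name were fixed by rule: the 3 lowest and 3 highest scores, the 3 widest, the 3 most distant from other peaks, those next to either limit and those of the fullest windows. Narrowest members were tied and are given as a count. The steps within the dense block, the widest peaks beyond the first 3 and the 6 members on chromosome 4 were singled out after their values were seen. The members, lists and limits were chosen with earlier results of these data known. The rule was run on 20 simulated lists with planted members, and all were recovered. Every planted member stood many kb from any other peak, so gaps just past the 500 bp limit were not covered. Software was scipy 1.17.1, pandas 2.3.3, numpy 2.4.6 and matplotlib 3.10.9 under Python 3.11.15. No sequence is shown and no gene is named from a position, because a genome of release 5 was not used here.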

Additional observations from a re-analysis of the deposited data

How the results depend on the processing

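No paired analysis was possible because 1 list stands for all 4 libraries and holds no values of a replicate, so none was left out either. A value counts as moved beyond its exact 95% interval (a count beyond 1.5 times). Of 39 alternatives 28 stayed within these bounds with the same sign, 9 moved and 2 changed sign within the interval. With a gap limit of 200 bp the set held 729 peaks in place of 480, the median width was 362 bp in place of 309 bp and the median gap to the nearest peak was 1495 bp in place of 19.0 kb; with 1000 bp that gap was 33.9 kb (33864 bp), by construction. The pericentromeric share of 24.1% was 19.6% without the fullest window on 2L, 16.9% without the dense block (added after seeing the data) and 17.1% without 2L. Zones of another size change it by construction and are also among the 9 that moved. The nearest 5% of the span held 10.97% of the members and the nearest 20% held 35.2%, where an even spread would give 5% and 20%. The width difference of -10.5 bp (interval -49 to 37 bp) between pericentromeric and other members changed sign in 2 settings. It was 1 bp with a gap limit of 1000 bp and 5.5 bp for the nearest 5% of the span, both inside that interval, and the cause was not tested. Score limits of 20 and 30 gave 417 and 528 peaks and moved no value beyond its interval.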
